A study of Mus musculus with 21 samples.

Results

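The 10 genes described here belong to the output and control of YAP and TAZ: the coactivators *Yap1* and *Wwtr1*, their DNA-binding partner *Tead1*, the targets *Ctgf*, *Cyr61*, *Ankrd1* and *Axl*, the inhibitors *Lats2* and *Amotl2*, which are also targets, and the adaptor *Ajuba*. The set was chosen with earlier results of these data known. Its genes were then taken by symbol from a table of 24454 genes, whatever their values. All 10 were found, and all 10 were among the 13719 genes with enough counts to be tested. YAP and TAZ (the product of *Wwtr1*) carry no DNA-binding domain of their own and reach promoters and enhancers through TEAD proteins. The LATS kinases of the Hippo pathway phosphorylate both coactivators, which keeps them out of the nucleus, and angiomotin proteins hold them in the cytoplasm and at cell junctions. In cultured fibroblasts their activity is known to follow cell spreading, stiffness of the substrate, cell density and serum, and *Ctgf*, *Cyr61* and *Ankrd1* are the transcripts most used to read it.

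Polyadenylated RNA was sequenced from mouse embryonic fibroblasts (MEFs) in 7 groups of 3 libraries. Floxed *Rtel1* cells (*Rtel1* F/F), which lose the helicase RTEL1 when Cre is supplied, were infected with Ad-GFP (+GFP) or Ad-Cre (+Cre) adenovirus, or infected with Ad-GFP and kept in TMPyP4, a ligand of G4-DNA, at 10 μM for 48 h (+TMPyP4). *Rtel1* F/F MEFs transduced with RTEL1 CA, a mutant with cysteines changed to alanine that is defective in unwinding t-loops, were infected with Ad-GFP or Ad-Cre. So were MEFs with floxed *Terf1* (*Terf1* F/F), which encodes the telomere protein TRF1. Cells of the *Rtel1* F/F groups were collected 96 h after infection, and the sources used here give no collection time for *Terf1* F/F cells. All 21 libraries thus came from adenovirus-infected cells. The mutant was carried by a pBabe vector in cells that still held the floxed alleles, and gene counts cannot tell its transcripts from theirs. Libraries are labelled as biological replicates, with no word on separate cultures or embryos. The paper speaks of independent experiments for all its data, without assigning these libraries to them. The p-values thus measure the spread between these libraries, which may be technical. Total counts lay between 32069888 and 51938593 per library, with a median of 43013208.

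Of 8 fibroblast markers, 8 were above 1 TPM (a level scaled for transcript length) in both *Terf1* F/F groups and 7 in each *Rtel1* F/F group. The exception was *Thy1*, at most 0.54 TPM in any *Rtel1* F/F library and at least 270.43 TPM in any *Terf1* F/F library. Markers of 5 other cell types were low: their summed levels reached 3.83 TPM for epithelial, 1.71 for endothelial, 11.7 for macrophage and blood, 0.52 for skeletal muscle and 27.1 for neural and glial markers, the last almost all *Tubb3*. *Adgre1* and *Myod1* were at 0 in all 21 libraries.

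The targeted genes were measured in CPM (counts scaled to normalized library size). *Rtel1* had 66.2, 59.1 and 60.2 CPM in *Rtel1* F/F +GFP cells (replicates 1 to 3, the order used throughout) and 29.9, 31.9 and 26.8 CPM in +Cre cells. With RTEL1 CA it had 338, 328 and 331 CPM after GFP and 283, 253 and 257 CPM after Cre. *Terf1* fell from 27.9, 29.6 and 30.3 CPM to 5, 2 and 1 counts in *Terf1* F/F +Cre cells. For each targeted gene, no +Cre library of its line reached the lowest +GFP library.

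The *Rtel1* F/F +GFP libraries stood apart from the other 18. In a principal component analysis of all libraries, the first component (71.9% of the variance) separated *Terf1* F/F from the other cells. On the second component (13.1%), the *Rtel1* F/F +GFP libraries were at -56.3, -74.9 and -71.8, and the others between -29.7 and 46.5. These 3 libraries are the shared control of 3 comparisons, +Cre, +TMPyP4 and RTEL1 CA +GFP against *Rtel1* F/F +GFP, whose values are therefore not independent of each other. For +Cre and +TMPyP4 cells, values of the 10 genes and of listed genes are given below also with RTEL1 CA +GFP cells as the control. Some fibroblast markers moved with the same libraries, the collagens, *Fn1*, *Pdgfra* and *Pdgfrb* being higher there than in +Cre cells, while *Vim* overlapped (1595 to 1767 against 1555 to 1763 TPM) and *Thy1* was lower (0.02 to 0.08 against 0.20 to 0.35 TPM). The sum over the 8 markers was 7295, 7831 and 8083 TPM (lowest, median and highest) in *Rtel1* F/F +GFP cells, led by *Col1a2* at 2089 TPM, against 3159, 3508 and 3996 TPM in +Cre cells, led by *Vim* at 1627 TPM. The sum was 4119, 4352 and 5442 TPM with TMPyP4, and 3458, 3785 and 4941 TPM in RTEL1 CA +GFP cells, both led by *Vim*. What part these marker levels have in the differences below was not tested, and in bulk RNA fewer cells of a kind and less RNA per cell cannot be told apart.

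Both coactivator transcripts were abundant and nearly level within a line. *Yap1* (chr9:7931999-8004638 of GRCm38.p6, as for all positions here) had 147, 146 and 143 CPM in *Rtel1* F/F +GFP cells, 154, 157 and 152 with Cre and 154, 151 and 152 with TMPyP4. It had between 150 and 159 CPM in the 6 libraries with RTEL1 CA and between 240 and 254 CPM in the 6 *Terf1* F/F libraries. On the CPM scale the *Rtel1* F/F +GFP libraries were thus the lowest, by a few CPM, and all *Terf1* F/F libraries the highest. In TPM, a level scaled for transcript length, the +GFP libraries had 70.45 to 75.8 and the other *Rtel1* F/F libraries 61.23 to 70.25. The place of *Yap1* in +GFP cells thus depends on the scale. In CPM, *Wwtr1* (chr3:57455644-57575910) went the other way from *Yap1*, with 267, 294 and 273 CPM in *Rtel1* F/F +GFP cells, 232, 247 and 225 with Cre, and 240, 239 and 235 with TMPyP4. With RTEL1 CA it had 237, 237 and 229 CPM after GFP and 219, 235 and 226 after Cre, and in *Terf1* F/F cells between 162 and 188 CPM. Its *Rtel1* F/F +GFP libraries lay above all 18 others. *Tead1* (chr7:112679356-112906784), which brings either coactivator to DNA, varied widely inside some groups: 249, 205 and 185 CPM in *Rtel1* F/F +GFP cells and 248, 243 and 203 with Cre. Neighbouring groups of *Tead1* overlapped all along the order of group means, from 213 ± 32.4 CPM (SD, n = 3) in *Rtel1* F/F +GFP to 298 ± 12.1 CPM (SD, n = 3) in *Terf1* F/F +GFP cells. All libraries of RTEL1 CA +GFP and *Terf1* F/F cells were above those of *Rtel1* F/F +GFP cells.

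*Ctgf* and *Ankrd1* varied most among the 10 genes. *Ctgf* (also *Ccn2*, chr10:24595442-24598683), a secreted matricellular protein, had 70, 63.2 and 60.8 CPM in *Rtel1* F/F +GFP cells. It had 153, 161 and 149 CPM with Cre, 166, 173 and 153 with TMPyP4, 182, 161 and 188 in RTEL1 CA +GFP and 164, 154 and 172 in RTEL1 CA +Cre cells. In *Terf1* F/F cells it had 546, 535 and 437 CPM after GFP and 601, 622 and 685 after Cre. Every library other than the *Rtel1* F/F +GFP ones was above those 3, the other *Rtel1* F/F groups overlapped each other, and the *Terf1* F/F groups were higher again and apart. The highest group mean of *Ctgf* (636 ± 43.4 CPM, SD, n = 3) was 9.83 times the lowest (64.7 ± 4.74 CPM, SD, n = 3).

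*Ankrd1* (chr19:36111965-36119844), a nuclear ankyrin-repeat protein, had 23.7, 10.5 and 12.7 CPM in *Rtel1* F/F +GFP cells, which rest on 1065, 513 and 632 counts. It had 94.2, 116 and 105 CPM with Cre, 69.6, 84.9 and 78.2 with TMPyP4, 97.8, 102 and 117 in RTEL1 CA +GFP and 106, 112 and 124 in RTEL1 CA +Cre cells. The *Terf1* F/F libraries had 67.7, 79.7 and 72.1 CPM after GFP and 62.3, 76.3 and 71.9 after Cre. No library outside *Rtel1* F/F +GFP was below 62.3 CPM. The TMPyP4 libraries were below all +Cre libraries of *Rtel1* F/F cells, with or without RTEL1 CA, but overlapped those of *Terf1* F/F cells. The highest group mean was 7.31 times the lowest.

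*Cyr61* (also *Ccn1*, chr3:145646971-145649985), the other secreted target, followed neither of these patterns. It had 915, 832 and 796 CPM in *Rtel1* F/F +GFP cells, 838, 922 and 968 with Cre and 1062, 1143 and 1054 with TMPyP4. With RTEL1 CA it had 1298, 1216 and 1511 CPM after GFP and 1204, 1251 and 1355 after Cre. *Cyr61* overlapped between +GFP and +Cre cells, was higher in each TMPyP4 library, and was lowest in *Terf1* F/F cells, with 554 to 743 CPM. *Axl* (chr7:25756500-25788924), the receptor tyrosine kinase of the set, had 662, 517 and 528 CPM in *Rtel1* F/F +GFP cells, 775, 648 and 745 with Cre and 657, 563 and 627 with TMPyP4, so that +GFP replicate 1 was above the lowest library of both other groups. Its highest group mean, 846 ± 17.3 CPM (SD, n = 3) in *Terf1* F/F +Cre cells, was apart from all others.

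Among the feedback inhibitors, *Amotl2* (chr9:102717091-102733418), an angiomotin, set *Rtel1* loss apart from TMPyP4. It had 277, 281 and 272 CPM in *Rtel1* F/F +GFP cells, 187, 130 and 171 with Cre and 317, 250 and 283 with TMPyP4. With RTEL1 CA it had 226, 150 and 189 CPM after GFP and 211, 147 and 173 after Cre, and in *Terf1* F/F cells 299, 240 and 222 after GFP and 324, 324 and 308 after Cre. The +Cre libraries were below every +GFP and TMPyP4 library of *Rtel1* F/F cells, within the range of the RTEL1 CA libraries or lower, while TMPyP4 libraries lay on both sides of the +GFP ones. *Lats2* (chr14:57689662-57746212), the kinase, kept between 55.0 and 73.7 CPM in all 15 *Rtel1* F/F libraries with every group overlapping, and had 77.1 to 84.2 CPM in *Terf1* F/F +Cre against 63.4 to 71.2 CPM in *Terf1* F/F +GFP cells. *Ajuba* (chr14:54567469-54577661), a LIM-domain protein that binds LATS kinases, had 84.2 to 131 CPM in *Rtel1* F/F and 50.8 to 67.0 CPM in *Terf1* F/F libraries, with no group apart from its neighbours within a line.

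**Figure D1:**
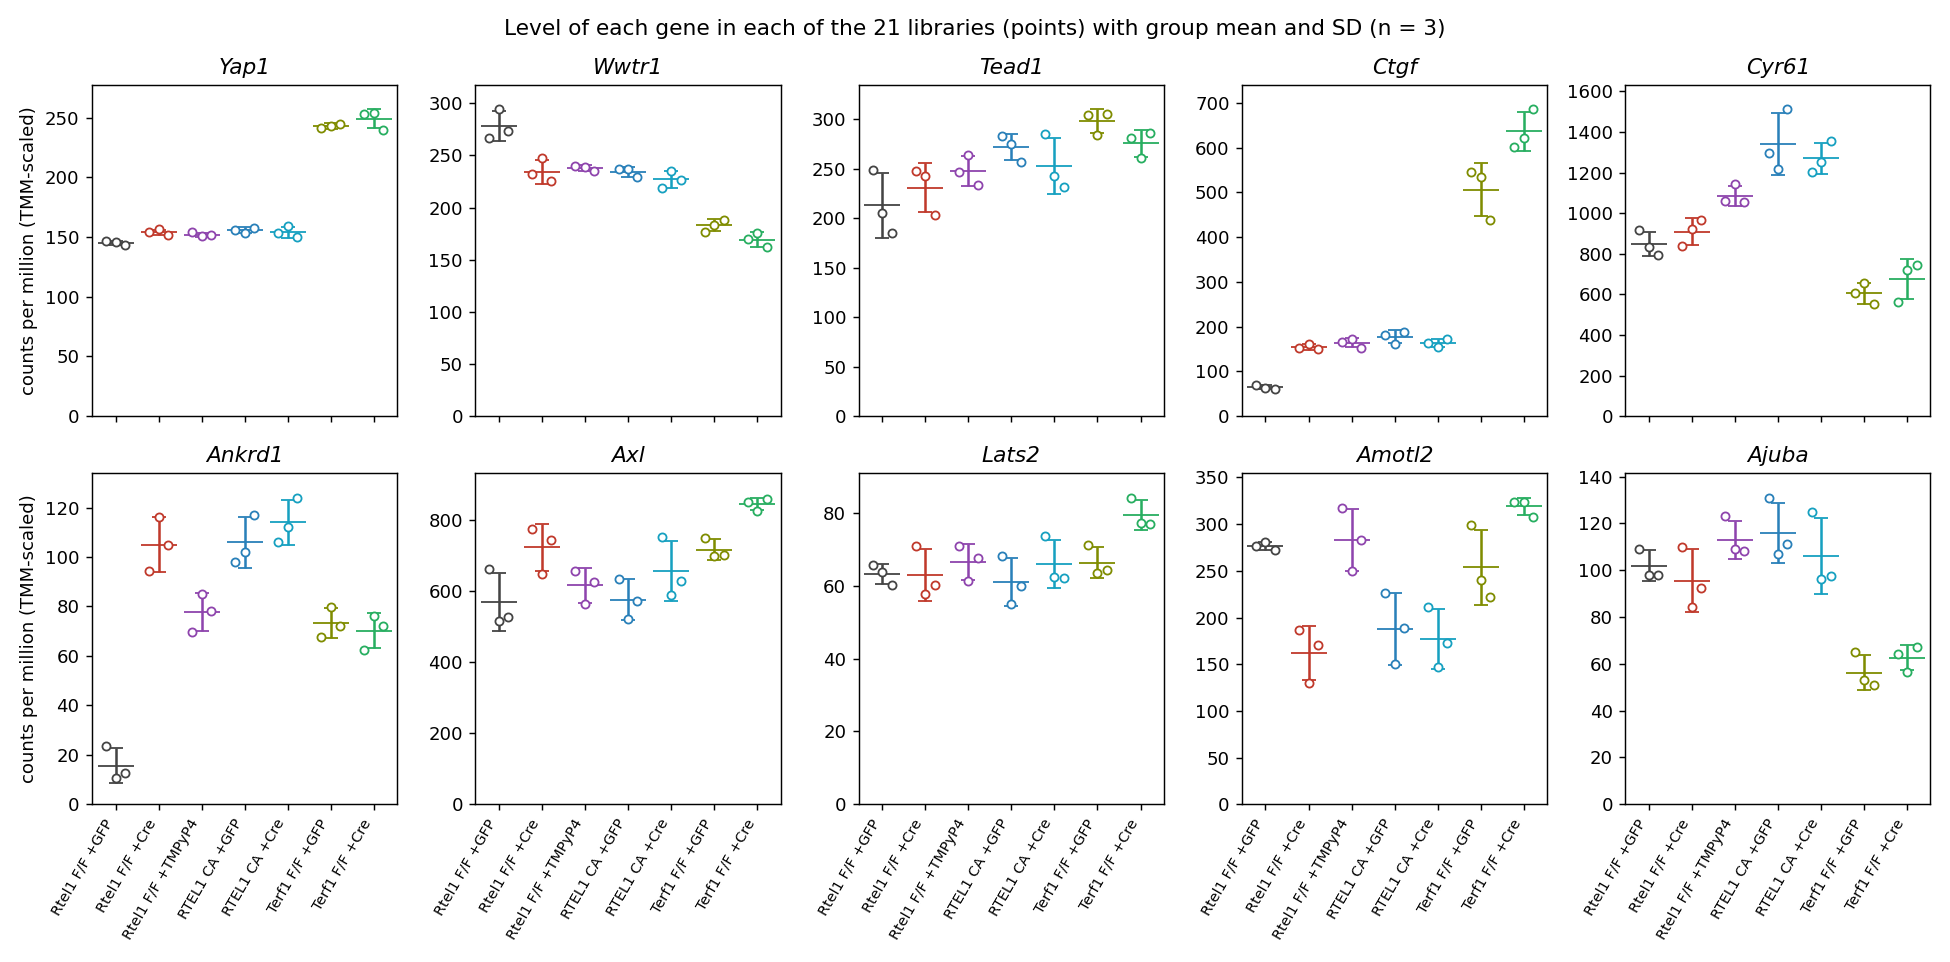
Level of each of the 10 genes in CPM (vertical axis, from 0) in the 7 groups (horizontal axis), with a point for each library and a bar for the group mean with its SD (n = 3). *Rtel1* F/F +GFP cells have the lowest *Ctgf* and *Ankrd1* levels, and *Amotl2* of this line is lower with Cre than with GFP or TMPyP4.

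On the TPM scale, which allows levels of different genes to be compared, *Cyr61* was the most abundant of the 10 in all 7 groups. *Ankrd1* was the least abundant in *Rtel1* F/F +GFP cells, with a mean of 19.4 TPM, and ranked 4 in +Cre cells, with 111 TPM. *Ctgf* ranked 7 at 57.7 TPM in *Rtel1* F/F +GFP cells, 3 at 117 TPM in +Cre cells and 2 at 444 TPM in *Terf1* F/F +GFP cells, where only *Cyr61* was above it.

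Loss of *Rtel1* was examined by comparing *Rtel1* F/F +Cre with +GFP cells. The test was the quasi-likelihood F-test of edgeR with p-values adjusted over all tested genes after Benjamini-Hochberg (below, the edgeR test), and genes were called where the adjusted p did not exceed the study's own threshold, 0.01. *Rtel1* itself fell (log2 fold change -1.07, SE 0.0787, adjusted p = 5.4e-09, edgeR test). *Ctgf* and *Ankrd1* rose, *Wwtr1* and *Amotl2* fell, and the other 6 genes were not called. These 4 of 10 called genes stand beside 43.0% of all tested genes called in the same comparison (5902 of 13719, 3015 higher and 2887 lower), so the share was close to that of genes in general. The libraries of both groups did not overlap for 5 of the 10 genes and for 61.4% of all tested genes, and the median log2 fold change was 0.09 over the 10 and -0.034 over all. *Ankrd1* was 6.74-fold higher (log2 fold change 2.75, SE 0.214, adjusted p = 1.9e-08, edgeR test) and *Ctgf* 2.39-fold higher (log2 fold change 1.26, SE 0.0899, adjusted p = 3.8e-09, edgeR test), each in 3 of 3 libraries. Their ranks among all log2 fold changes were at the percentiles 99.3 and 96.7. *Amotl2* was 1.71-fold lower (log2 fold change -0.77, SE 0.16, adjusted p = 5.4e-04, edgeR test). *Wwtr1* was 1.19-fold lower (log2 fold change -0.25, SE 0.0545, adjusted p = 9.1e-04, edgeR test).

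The calls of *Ctgf*, *Ankrd1* and *Amotl2* after *Rtel1* loss held with each of the 6 libraries left out in turn, with log2 fold changes of 1.21 to 1.32, 2.55 to 3.18 and -0.88 to -0.65. *Wwtr1* lost its call without +Cre replicate 3, +GFP replicate 2 or +GFP replicate 3 (adjusted p = 0.0268, 0.0424 and 0.0118, edgeR test), and in a fit of these 6 libraries alone (0.0314; alternatives from 7.25e-05 to 0.996). *Axl* was just outside the threshold (log2 fold change 0.35, SE 0.107, adjusted p = 0.0108, edgeR test). It was called without +Cre replicate 2 or +GFP replicate 1 (adjusted p = 0.00444 and 0.000964, edgeR test) by DESeq2 (0.00158), with DESeq2 size factors (0.00489), upper-quartile scaling (0.00678) and no filter on low counts (0.00719), and in 8 of 16 alternatives in all, with alternatives from 0.000186 to 0.0517. For the remaining genes, log2 fold changes were between -0.09 (*Ajuba*) and 0.12 (*Tead1*), with adjusted p from 0.114 to 0.978 (edgeR test). Scaling by total counts in place of TMM moved the median of all genes by -0.102 and the share of higher genes among those called from 51.1% to 39%, and turned the sign of *Yap1* to -0.02.

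TMPyP4 was compared with the same +GFP libraries. *Ctgf*, *Ankrd1* and *Cyr61* rose, *Wwtr1* fell, and 6 of the 10 genes were not called. The background here was 30.0% of tested genes called (4114, 2278 higher and 1836 lower), and 57.8% with libraries that did not overlap, which 5 of the 10 genes also had. The median log2 fold change was 0.13 over the 10 and -0.01 over all. *Ankrd1* was 4.97-fold higher (log2 fold change 2.31, SE 0.211, adjusted p = 4.3e-07, edgeR test). *Ctgf* was 2.53-fold higher (log2 fold change 1.34, SE 0.09, adjusted p = 7.9e-09, edgeR test). Both calls held with each of the 6 libraries left out, with log2 fold changes of 2.08 to 2.74 and 1.28 to 1.4. *Cyr61* was 1.28-fold higher (log2 fold change 0.36, SE 0.104, adjusted p = 0.00959, edgeR test), a call that 5 of the 6 fits without a library did not make. With RTEL1 CA +GFP cells as the control its sign turned (-0.3, SE 0.103, adjusted p = 0.0354, edgeR test).

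For *Cyr61*, adjusted p became 0.0539 without +GFP replicate 2 and 0.0742 without +GFP replicate 3 (edgeR test), and 0.0175, 0.0430 and 0.0195 without TMPyP4 replicates 1, 2 and 3. The call was also lost with DESeq2 size factors (0.0131), upper-quartile scaling (0.0218), total counts (0.0502) and a filter of at least 10 counts in every library (0.0128), with alternatives from 0.00576 to 0.0742. *Wwtr1* was 1.17-fold lower (log2 fold change -0.22, SE 0.0545, adjusted p = 0.00291, edgeR test), but not called without +GFP replicate 2 (0.0462) or 3 (0.0141), or TMPyP4 replicate 2 (0.0114) or 3 (0.0152), with no filter on low counts (0.0205) or in a fit of these 6 libraries alone (0.0188), with alternatives from 2.69e-04 to 0.804. The count of called genes among the 10 was thus 2 in each of these 4 fits, and over all genes it was 2466 and 2710 without +GFP replicate 2 and 3. Without TMPyP4 replicate 2 or 3 the count over all genes stayed within 1.5 times of 4114. *Tead1* was called only without +GFP replicate 1 (log2 fold change 0.35, adjusted p = 0.00879, edgeR test, with alternatives from 0.00879 to 0.448), against a log2 fold change of 0.22 and an adjusted p of 0.0904 with all libraries. *Amotl2* had a log2 fold change of 0.03 (SE 0.159, adjusted p = 0.886, edgeR test), whose sign changed to -0.07 with scaling by total counts. That scaling shifted the median of all genes by -0.099, took the share of higher genes among those called from 55.4% to 37.5%, and turned *Yap1* and *Lats2* to -0.03 each.

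The difference between *Rtel1* loss and TMPyP4 was tested directly, +Cre against TMPyP4, which needs no +GFP library. *Amotl2* was the only gene of the 10 that was called, beside 15.2% of all tested genes (2088). It was 1.75-fold lower with Cre (log2 fold change -0.8, SE 0.16, adjusted p = 0.00118, edgeR test), lower in every +Cre library, and called with each of the 6 libraries left out; when only the 6 libraries compared were fitted it just missed the threshold (adjusted p = 0.0108, the highest of a range from 5.31e-06). With the replicate number as a block, since same-numbered libraries of these groups deviated together, *Axl* was called too (log2 fold change 0.23, adjusted p = 0.00939 against 0.127 without the block, edgeR test). That block was fitted per line, so the *Rtel1* F/F +GFP libraries, which did not deviate together with these, share it. *Ctgf* had a log2 fold change of -0.08 (SE 0.0884, adjusted p = 0.546, edgeR test) and *Ankrd1* of 0.44 (SE 0.199, adjusted p = 0.123, edgeR test). *Cyr61* had a log2 fold change of -0.26 (SE 0.103, adjusted p = 0.0793, edgeR test), and its libraries, like those of *Ankrd1* and *Amotl2*, did not overlap between groups, as held for 37.8% of all tested genes.

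Introduction of RTEL1 CA without Cre was the third comparison with the *Rtel1* F/F +GFP libraries. *Ctgf*, *Ankrd1*, *Cyr61* and *Tead1* were higher and *Wwtr1* and *Amotl2* lower, 6 of 10 genes, where 44.7% of all tested genes were called (6138). The groups did not overlap for 7 of the 10 genes and for 63.6% of all. *Ankrd1* was 6.77-fold higher (log2 fold change 2.76, SE 0.214, adjusted p = 1.8e-08, edgeR test). *Ctgf* was 2.74-fold higher (log2 fold change 1.45, SE 0.0903, adjusted p = 7.1e-10, edgeR test). *Cyr61* was 1.58-fold higher (log2 fold change 0.66, SE 0.104, adjusted p = 3.2e-05, edgeR test). These 3 calls held with each of the 6 libraries left out.

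The other 3 calls with RTEL1 CA each ended without some library. *Tead1* (log2 fold change 0.35, SE 0.102, adjusted p = 0.00715, edgeR test) lost its call without +GFP replicate 2 or 3 (0.0215 and 0.0376) or RTEL1 CA replicate 1 or 2 (0.0165 and 0.0182), with alternatives from 5.26e-04 to 0.0517. *Wwtr1* (log2 fold change -0.25, SE 0.0545, adjusted p = 8.2e-04, edgeR test) lost it without +GFP replicate 2 or 3 (0.0480 and 0.0135) or RTEL1 CA replicate 1 or 3 (0.0168 and 0.0252), with alternatives from 4.23e-05 to 0.0480. *Amotl2* (log2 fold change -0.55, SE 0.159, adjusted p = 0.00664, edgeR test) lost it without +GFP replicate 1 or 2 (0.0155 and 0.0135) or RTEL1 CA replicate 2 or 3 (0.0391 and 0.0133), with alternatives from 1.41e-04 to 0.0391. Without +GFP replicate 2, or in a fit of these 6 libraries alone, 3 of the 10 genes were called. The count over all genes stayed within 1.5 times of 6138 in both fits. DESeq2, whose share over all genes is not given here, called 7, *Yap1* in addition (0.13, adjusted p = 0.00557, DESeq2 with Benjamini-Hochberg adjustment, with alternatives to 0.776). The edgeR log2 fold change of *Yap1*, 0.10, turned to -0.02 when scaled by total counts. Scaling by total counts moved the median of all genes by -0.116 and the share of higher genes among those called from 50.6% to 37.1%.

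With RTEL1 CA +GFP cells as the control in place of *Rtel1* F/F +GFP cells, *Ctgf* and *Ankrd1* were not called for either *Rtel1* loss or TMPyP4. For *Rtel1* F/F +Cre cells *Ctgf* then had a log2 fold change of -0.20 (SE 0.0883, adjusted p = 0.175, edgeR test) and *Ankrd1* of -0.01 (SE 0.199, adjusted p = 0.997, edgeR test). *Cyr61* was called lower in this comparison (log2 fold change -0.56, SE 0.104, adjusted p = 9.89e-04, edgeR test), alone among the 10, where 7.76% of all tested genes were called (1064). *Amotl2* had -0.21 (SE 0.159, adjusted p = 0.474, edgeR test). For TMPyP4 against this control, edgeR called 0 of the 10 genes, 3 at an unadjusted p under 0.05, and 2333 genes in all (17%); DESeq2 was not run with this control. *Ctgf* had a log2 fold change of -0.11 (adjusted p = 0.388, edgeR test), *Ankrd1* of -0.45 (0.109) and *Amotl2* of 0.59 (0.0103; over all alternatives for *Amotl2* with TMPyP4, 3.25e-04 to 1).

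Same-numbered libraries deviated together in both comparisons with this control, so a replicate block was added after seeing the data. This block fitted shared effects of the replicate number over all 21 libraries. These include the *Rtel1* F/F +GFP libraries, which did not deviate together with same-numbered libraries of the groups compared. With it, *Rtel1* loss called 3 of the 10 genes, beside 10.4% of all: *Cyr61* lower (log2 fold change -0.56, SE 0.0987, adjusted p = 5.42e-04, edgeR test), *Axl* higher (0.33, SE 0.0653, adjusted p = 0.00170 against 0.0517 without the block, edgeR test) and *Ajuba* lower (-0.29, SE 0.0669, adjusted p = 0.00554, edgeR test). TMPyP4 called 1 of the 10, beside 23.9% of all, *Amotl2* higher (0.60, SE 0.106, adjusted p = 3.25e-04, edgeR test). *Ctgf* and *Ankrd1* were called in neither. Both kinds of +GFP cells differ by the transduced mutant, and the paper credits them to different earlier studies. Which is nearer to cells without virus was not tested.

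**Figure D2:**
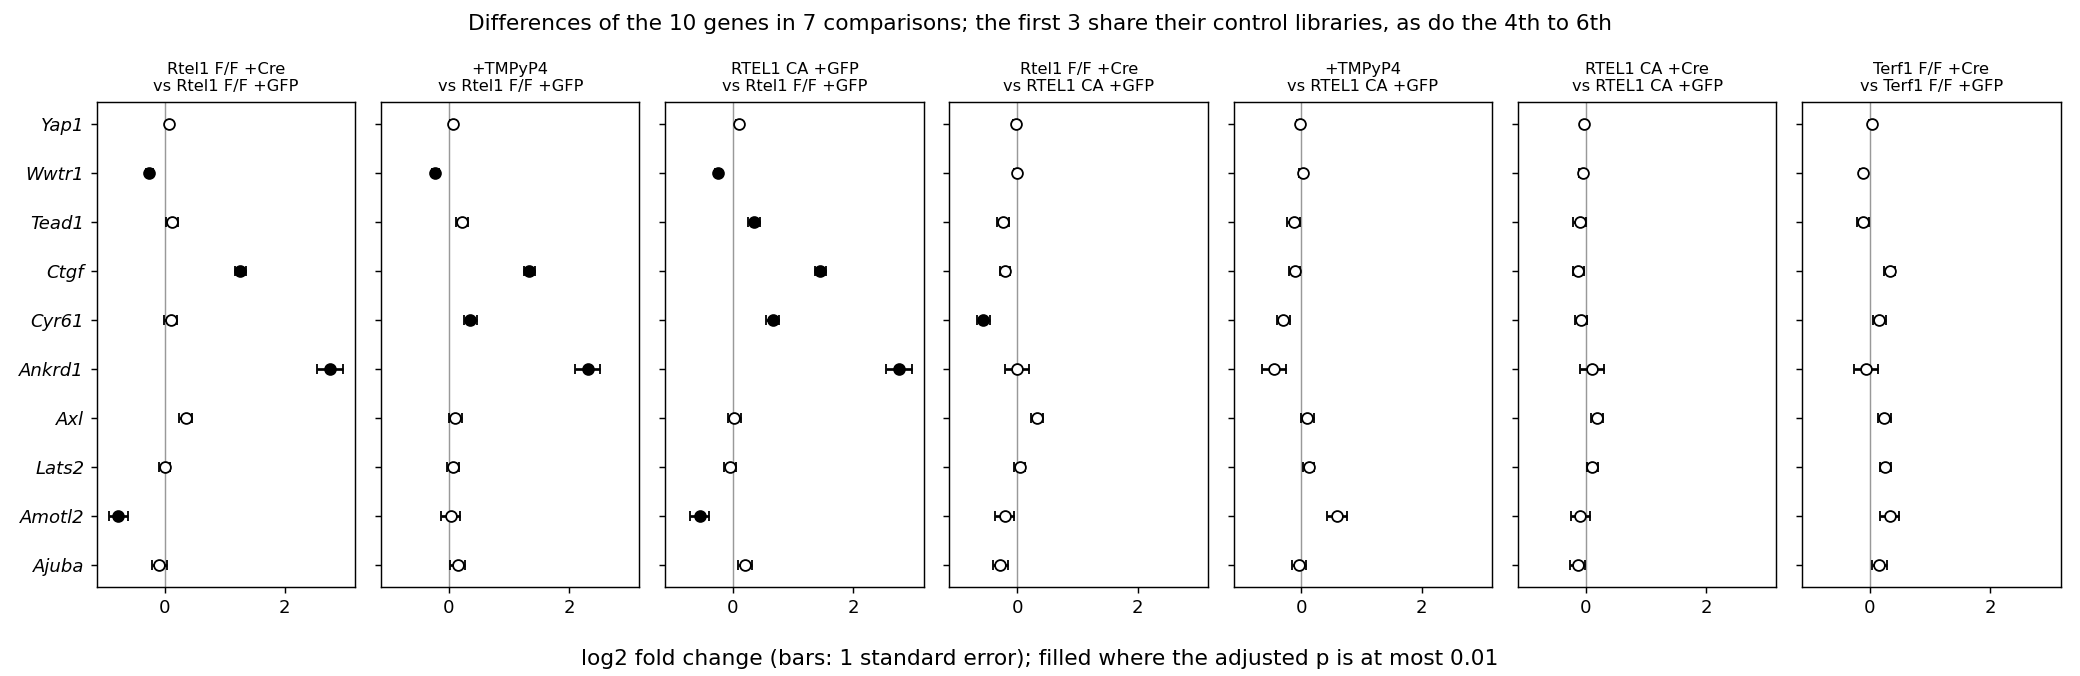
Log2 fold change of each of the 10 genes (horizontal axis) in the comparisons between groups, with bars of 1 SE from edgeR and points filled in where the adjusted p was at most 0.01. *Ctgf* and *Ankrd1* lie far to the right in the comparisons with *Rtel1* F/F +GFP cells and are not called elsewhere. Against the same cells, *Amotl2* lies to the left and is called for *Rtel1* loss and for RTEL1 CA +GFP cells, but not for TMPyP4.

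The effect of Cre was also measured in the other cells. In cells with RTEL1 CA, edgeR called 0 of the 10 genes between +Cre and +GFP, 0 at an unadjusted p under 0.05, and DESeq2 called 0, with 0 at an unadjusted p under 0.05; 1.09% of all tested genes were called (150). Log2 fold changes lay between -0.13 (*Ajuba*) and 0.19 (*Axl*), and no gene of the 10 had groups that did not overlap, as 16.2% of all genes did. Same-numbered libraries deviated together here, and within the 3 pairs *Axl*, *Lats2* and *Ankrd1* were higher with Cre each time and *Ctgf*, *Amotl2*, *Ajuba* and *Wwtr1* lower each time. A fit with the replicate block called none of them (lowest adjusted p = 0.0946, *Axl*, edgeR test, with alternatives to 0.753). *Ctgf* had -0.12 (SE 0.0883) and *Ankrd1* 0.11 (SE 0.198). *Rtel1*, counted from both the floxed and the transduced copies, had -0.33 (SE 0.0768, adjusted p = 0.0241, edgeR test). The total of 150 genes fell to between 52 and 73 without +Cre replicate 2 or 3 or +GFP replicate 1 or 3, and to 0 when only these 6 libraries were fitted.

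In *Terf1* F/F cells edgeR called 0 of the 10 genes, with 3 at an unadjusted p under 0.05, and DESeq2 called 0, with 4 at an unadjusted p under 0.05, while 3.42% of all tested genes were called (469). *Ctgf* had a log2 fold change of 0.33 (SE 0.0881, adjusted p = 0.0295, edgeR test) and was higher in 3 of 3 +Cre libraries. *Lats2* had 0.26 (SE 0.0937, adjusted p = 0.123, edgeR test), *Axl* 0.24 (SE 0.107, adjusted p = 0.253, edgeR test) and *Amotl2* 0.33 (SE 0.159, adjusted p = 0.302, edgeR test), also without overlap between groups. With a replicate block *Lats2* was called (adjusted p = 0.00935, edgeR test), though same-numbered libraries did not all deviate together here. In all, 5 of the 10 genes had groups apart, beside 26.9% of all tested genes, and *Ankrd1* had a log2 fold change of -0.06 (SE 0.199). Over all genes, 282 to 301 were called without +Cre replicate 1 or 2 or +GFP replicate 2 or 3.

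Whether the effect of Cre differed between lines was tested as a difference of log2 fold changes. Between *Rtel1* F/F cells and those with RTEL1 CA, 2 of the 10 genes were called, beside 25.1% of all tested genes. *Ankrd1* differed by 2.64 (SE 0.288, adjusted p = 3.8e-06, edgeR test) and *Ctgf* by 1.37 (SE 0.126, adjusted p = 5.6e-07, edgeR test). *Amotl2* differed by -0.68 (SE 0.225, adjusted p = 0.0241, edgeR test), and was called without RTEL1 CA +Cre replicate 2 (0.00901) or +GFP replicate 1 (0.00481), by DESeq2 (0.00866), with total counts (0.00969) and with the replicate block (7.10e-04), with alternatives from 7.10e-04 to 0.0766. Between *Rtel1* F/F and *Terf1* F/F cells, 3 of the 10 genes were called, beside 30.2% of all: *Ankrd1* with a difference of 2.81 (SE 0.289, adjusted p = 1.3e-06, edgeR test), *Ctgf* with 0.93 (SE 0.125, adjusted p = 1.6e-05, edgeR test) and *Amotl2* with -1.10 (SE 0.225, adjusted p = 8.1e-04, edgeR test). The *Ankrd1* and *Ctgf* calls in both tests held with each of the 12 libraries left out, as did that of *Amotl2* against *Terf1* F/F cells. Both tests use the *Rtel1* F/F +GFP libraries. Scaling by total counts moved the median difference of all genes by -0.117 for the test against RTEL1 CA and the share of higher genes among those called from 51.1% to 34%. For the test against *Terf1* F/F cells the share moved from 52.1% to 42.1%.

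Other parts of the pathway were described by lists of genes, fitted without a replicate block also where same-numbered libraries deviated together. The lists too were chosen with earlier results of these data known, so their shares beside those of all genes are a description. Of 24 Hippo pathway genes and TEAD partners, 13 were called after *Rtel1* loss (54.2%, beside 43.0% of all tested genes), 6 higher and 7 lower, with a median log2 fold change of 0. *Mob1b*, a LATS cofactor, rose (log2 fold change 0.64, SE 0.101, adjusted p = 3.2e-05, edgeR test), as did the upstream kinase *Map4k4* (0.37, SE 0.0805, adjusted p = 7.9e-04, edgeR test) and the TEAD gene *Tead4* (0.47, SE 0.088, adjusted p = 2.0e-04, edgeR test). The cadherins *Fat4* and *Dchs1*, which bind each other between cells, fell. *Fat4* had 37.1, 68.0 and 46.7 CPM in *Rtel1* F/F +GFP cells, 4.19, 3.30 and 4.15 with Cre, 8.91, 5.78 and 6.85 with TMPyP4 and 10.4, 9.93 and 7.70 in RTEL1 CA +GFP cells. Its +GFP libraries were above all others of that line. The log2 fold change of *Fat4* was -3.70 (SE 0.28, adjusted p = 1.6e-08, edgeR test), that of *Dchs1* -1.76 (SE 0.307, adjusted p = 1.3e-04, edgeR test) and that of *Vgll4*, which competes with YAP for TEAD, -1.10 (SE 0.319, adjusted p = 0.00771, edgeR test). With TMPyP4, 7 of the 24 genes were called (29.2%, beside 30.0% of all), 4 higher and 3 lower, with a median of 0.06.

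Higher with TMPyP4 were *Wwc1* (log2 fold change 0.77, SE 0.218, adjusted p = 0.00850, edgeR test), which scaffolds LATS activation, *Vgll3* (0.57, SE 0.0721, adjusted p = 8.0e-06, edgeR test), a TEAD cofactor, and the MST kinase *Stk3* (0.36, SE 0.0836, adjusted p = 0.00200, edgeR test). Lower were *Fat4* (-2.82, SE 0.266, adjusted p = 6.8e-07, edgeR test), *Dchs1* (-1.22, SE 0.302, adjusted p = 0.00392, edgeR test) and the angiomotin *Amot* (-0.70, SE 0.0753, adjusted p = 1.6e-06, edgeR test). In RTEL1 CA +GFP against *Rtel1* F/F +GFP cells 14 of the 24 were called (58.3%, beside 44.7% of all), 7 in each direction. For the effect of Cre with RTEL1 CA, edgeR and DESeq2 each called 0 of the 24 (edgeR 1.09% of all tested genes), with 1 and 2 at an unadjusted p under 0.05, and log2 fold changes lay between -0.46 and 0.16. In *Terf1* F/F cells both tools called 0 as well (edgeR 3.42% of all), each with 3 at an unadjusted p under 0.05, and log2 fold changes lay between -0.22 and 0.39.

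A list held 16 further published YAP and TAZ targets. After *Rtel1* loss 6 were called (37.5%, beside 43.0% of all tested genes), 1 higher and 5 lower, with a median log2 fold change of -0.08. *Myof* rose (0.50, SE 0.0727, adjusted p = 1.5e-05, edgeR test), and *Rbms3* (-1.67, SE 0.0779, adjusted p = 1.8e-11, edgeR test), *Ccdc80* (-1.29, SE 0.0843, adjusted p = 1.2e-09, edgeR test) and *Tgfb2* (-1.15, SE 0.11, adjusted p = 1.3e-07, edgeR test) fell most. With TMPyP4 7 were called (43.8%, beside 30.0% of all), 5 higher and 2 lower, with a median of 0.21. The ectonucleotidase gene *Nt5e* (0.96, SE 0.128, adjusted p = 1.4e-05, edgeR test), the tissue factor gene *F3* (0.70, SE 0.121, adjusted p = 1.6e-04, edgeR test) and *Crim1* (0.66, SE 0.0966, adjusted p = 3.3e-05, edgeR test) rose, and *Tgfb2* (-0.55, SE 0.109, adjusted p = 5.7e-04, edgeR test) and *Rbms3* (-0.28, SE 0.0748, adjusted p = 0.00521, edgeR test) fell.

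Tested directly, +Cre against TMPyP4, 8 of the 16 further targets were called and all 8 were lower with Cre, with a median of -0.37, beside 15.2% of all tested genes called, 841 higher and 1247 lower. The same test called 6 of the 24 Hippo genes, 2 higher and 4 lower, and 3 of the 7 TGF-beta response genes, 1 higher and 2 lower. In RTEL1 CA +GFP against *Rtel1* F/F +GFP cells 9 of the 16 were called (44.7% of all tested genes were), 5 higher and 4 lower. The higher ones include *Igfbp3*, which was named after its values were seen. Its 3 control libraries all had 0 counts, and RTEL1 CA +GFP libraries at most 0.16 CPM. It passed the filter on low counts through *Terf1* F/F libraries, with 6.56 to 9.18 CPM. Its call is therefore not read as a result, and no fold change is given. Beside 1.09% and 3.42% of all tested genes by edgeR, the effect of Cre called 1 gene of the 16 with RTEL1 CA (*Rbms3*, -0.68, adjusted p = 8.7e-05, edgeR test) and 1 in *Terf1* F/F cells (*Gadd45a*, -0.63, adjusted p = 2.7e-04, edgeR test, chosen for naming after its value was seen). DESeq2 called 3 in each, beside 337 of 18517 genes in all with RTEL1 CA. Its count over all genes in *Terf1* F/F cells is not given here.

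The list of 7 genes of the TGF-beta response, which shares *Ctgf* as a target with YAP and TAZ, held genes called in both directions. After *Rtel1* loss all 7 were called, 4 higher and 3 lower, beside 43.0% of all tested genes. *Tgfbi*, a matrix protein induced by TGF-beta, had 214, 321 and 306 CPM in *Rtel1* F/F +GFP cells, 51.4, 53.4 and 56.1 with Cre, 103, 102 and 92.7 with TMPyP4 and 37.2, 36.3 and 40.5 in RTEL1 CA +GFP cells. The +GFP libraries of the *Rtel1* F/F line were thus the highest for *Tgfbi* among these groups, without overlap. The feedback inhibitors rose after *Rtel1* loss, *Smad7* (0.38, SE 0.0923, adjusted p = 0.00183, edgeR test) and *Pmepa1* (0.32, SE 0.0809, adjusted p = 0.00252, edgeR test). *Tgfbi* fell (-2.38, SE 0.111, adjusted p = 1.7e-11, edgeR test), with *Ltbp2* (-1.55, SE 0.257, adjusted p = 8.4e-05, edgeR test) and *Postn* (-1.25, SE 0.187, adjusted p = 2.2e-05, edgeR test), both of the extracellular matrix.

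With TMPyP4, 3 of the 7 TGF-beta response genes were called (42.9%, beside 30.0% of all), 1 higher and 2 lower. The lower ones were *Ltbp2* (-1.81, SE 0.259, adjusted p = 4.0e-05, edgeR test) and *Tgfbi* (-1.50, SE 0.107, adjusted p = 1.7e-08, edgeR test). RTEL1 CA +GFP cells gave 4 calls (44.7% of all tested genes), 1 higher and 3 lower. For the effect of Cre with RTEL1 CA, edgeR called 0 of the 7 (1.09% of all tested genes), with 2 at an unadjusted p under 0.05. DESeq2 called 2, beside 337 of 18517 genes in all. Same-numbered libraries deviated together here, and whether a replicate block would change the edgeR count was not tested. Closest to the threshold were *Postn* (-1.04, adjusted p = 0.0126, edgeR test) and *Tgfbi* (-0.49, 0.0162), each lower with Cre in every pair. In *Terf1* F/F cells *Tgfbi* alone was called (-0.60, adjusted p = 0.00129, edgeR test), beside 3.42% of all.

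The calls of listed genes for *Rtel1* loss and TMPyP4 also depended on the control. RTEL1 CA +GFP cells were added as the control for the lists after seeing the data, and every gene named above for *Rtel1* loss or TMPyP4 is given here with it for that comparison, with some of those newly called, named after their values were seen. *Rtel1* loss then called 3 of the 24 Hippo genes (1 higher, 2 lower), 4 of the 16 further targets (all lower) and 2 of the 7 TGF-beta response genes (both higher), beside 7.76% of all tested genes. In the Hippo list *Fat4* was lower (log2 fold change -1.27, SE 0.271, adjusted p = 0.00405, edgeR test), *Map4k4* higher (0.37, SE 0.0805, adjusted p = 0.00417, edgeR test) and *Vgll3* lower (-0.53, SE 0.0721, adjusted p = 4.88e-05, edgeR test). *Dchs1* (0.16, adjusted p = 0.839, edgeR test) and *Vgll4* (0.28, 0.684) were not called and turned sign, and *Mob1b* (0.22, 0.181) and *Tead4* (0.07, 0.720) were not called. Of the further targets, *Nt5e* (-1.58, SE 0.127, adjusted p = 9.24e-08, edgeR test), *Rbms3* (-0.82, SE 0.0774, adjusted p = 6.47e-07, edgeR test), *F3* (-0.73, SE 0.121, adjusted p = 3.62e-04, edgeR test) and *Ccdc80* (-0.71, SE 0.0835, adjusted p = 9.05e-06, edgeR test) were lower. *Tgfb2* (-0.24, adjusted p = 0.176, edgeR test) and *Myof* (0.17, 0.156) were not called. Of the TGF-beta response, *Tgfbi* was called higher in place of lower (0.50, SE 0.106, adjusted p = 0.00349, edgeR test) and *Pmepa1* higher (0.56, SE 0.0811, adjusted p = 8.67e-05, edgeR test). *Ltbp2* (0.53, adjusted p = 0.208, edgeR test) and *Postn* (0.50, 0.120) were not called and turned sign, and *Smad7* (0.24, 0.109) was not called.

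TMPyP4 against the same control called 2 Hippo genes (1 higher, 1 lower), 7 further targets (6 higher, 1 lower) and 2 TGF-beta response genes (both higher), beside 17% of all tested genes. The Hippo genes were *Tead2* (0.50, SE 0.0969, adjusted p = 8.33e-04, edgeR test) and *Frmd6* (-0.32, SE 0.0846, adjusted p = 0.00813, edgeR test). None of those named above was called: *Fat4* had -0.39 (adjusted p = 0.306, edgeR test), *Stk3* 0.30 (0.0111) and *Vgll3* 0.08 (0.475), and the sign turned for *Dchs1* (0.70, 0.0987), *Wwc1* (-0.28, 0.370) and *Amot* (0.04, 0.777). Of the further targets *Rbms3* (0.57, SE 0.0757, adjusted p = 2.12e-05, edgeR test) and *Nt5e* (-0.99, SE 0.124, adjusted p = 1.04e-05, edgeR test) were called with the sign turned. *Crim1* (0.25, adjusted p = 0.0620, edgeR test) was not called, nor were *F3* (-0.05, 0.810) and *Tgfb2* (0.35, 0.0233), whose signs turned. *Tgfbi* (1.38, SE 0.108, adjusted p = 4.02e-08, edgeR test) was called higher in place of lower. *Postn* (2.22, SE 0.194, adjusted p = 2.06e-07, edgeR test) was higher, and *Ltbp2* had 0.27 (adjusted p = 0.476, edgeR test), its sign turned.

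Genes outside these lists with the most similar pattern were sought for 4 of the 10 genes, by Pearson correlation of log2 CPM over the 21 libraries among 10175 genes. The libraries share groups and controls, so these values are a description. Nearest to *Ctgf* were *Fhl1* (r = 0.985), *Ap1g2* (0.983) and *Glipr1* (0.980), and nearest to *Ankrd1* were *Cdh2* (0.978), *Ptgs2* (0.973) and *Eif5* (0.972). *Amotl2* was followed by *Klf4* (0.976), *Mib2* (0.955) and *Foxj2* (0.943), and *Cyr61* by *Rap2a* (0.949), *Ap2m1* (0.947) and *Cdc42ep3* (0.944).

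Promoter sequences are given as a description. The 10 genes were chosen as output and control of coactivators that act through TEAD, so a count of TEAD letters among them is not independent of that choice. The RefSeq promoters of GRCm38.p6 (250 bases before to 50 after the start in the promoter table) matched 8 of the 10 genes, all but *Ctgf* and *Tead1*. The core letters of a TEAD motif, GGAATG on either strand, were present in the promoter of all 8, against 16.6% of 27025 genes with a promoter (4481). In the last 200 of these 300 bases, the 50 after the start included, they were present in 6 of 8 (not *Axl* and *Ajuba*), against 11.3% of genes. Outside that window lie the matches of *Ajuba*, 158 and 180 bases before the start, and of *Axl*, 227 bases before it. *Ankrd1* and *Ajuba* held 2 matches each, as 1.57% of genes did. *Wwtr1* and *Lats2* have 2 promoters each, and the second of *Lats2* held none. Of the Hippo list 7 of 19 genes with a promoter held a match, of the further targets 2 of 10 and of the TGF-beta list 0 of 3. The AP-1 letters TGANTCA were in 0 of 8 promoters (8.97% of all genes), and 4 runs of at least 3 G with 1 to 7 bases between them, on either strand, in 1 of 8, that of *Cyr61* (20.4% of all genes), in 8 of 19 of the Hippo list, 5 of 10 of the further targets and 0 of 3 of the TGF-beta list. These are matches of letters, not measured binding.

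The stretches around each match are shown because called genes (*Ankrd1*, *Cyr61*, *Amotl2*, *Wwtr1*) and those that were not (*Yap1*, *Axl*, *Lats2*, *Ajuba*) share them. Called here means for *Rtel1* loss, TMPyP4 or both, against *Rtel1* F/F +GFP cells, with all libraries and no replicate block. Some alternatives called *Axl* and *Ajuba* as well. Each is 30 bases of GRCm38.p6, written 5′ to 3′ on the strand where the letters read GGAATG, in capitals. On the minus strand lie those of *Yap1* (chr9:8004720-8004749), *Wwtr1* (chr3:57576029-57576058), *Ankrd1* (chr19:36120037-36120066 for the distal and chr19:36119950-36119979 for the proximal match), *Axl* (chr7:25788949-25788978), *Lats2* (chr14:57746102-57746131) and *Amotl2* (chr9:102717727-102717756). On the plus strand lie those of *Cyr61* (chr3:145650071-145650100) and *Ajuba* (chr14:54577830-54577859 distal and chr14:54577808-54577837 proximal). Starts in the promoter table differ from the ends of the gene coordinates given above for some genes, and the *Lats2* and *Amotl2* stretches lie inside those coordinates. By the GENCODE annotation of the same build the *Ankrd1* and *Amotl2* stretches are within 5′ UTR of some transcripts. Exons were looked up only in the 250 bases before the start in the promoter table. The *Lats2* match lies after that start and was not looked up.
Yap1: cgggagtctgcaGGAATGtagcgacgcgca
Wwtr1: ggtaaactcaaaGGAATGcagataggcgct
Cyr61: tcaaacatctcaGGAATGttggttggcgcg
Ankrd1 distal: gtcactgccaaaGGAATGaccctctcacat
Ankrd1 proximal: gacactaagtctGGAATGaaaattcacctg
Axl: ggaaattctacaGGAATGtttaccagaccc
Lats2: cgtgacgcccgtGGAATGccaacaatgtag
Amotl2: gctgctatgccaGGAATGtgagagtttcag
Ajuba distal: gaggggcactgtGGAATGtatccatcaacg
Ajuba proximal: ttgtttacagttGGAATGcgcggaggggca

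*Cyr61* is shown over the whole 250 bases before its start, as the promoter of the set with runs of G and the most abundant transcript. The sequence is chr3:145649986-145650235 of GRCm38.p6, read on the minus strand, the strand of the gene. Capitals mark the TEAD letters, CATTCC on this strand, and the runs of G are on the opposite strand, where the first bases here show runs of C. No GENCODE exon overlaps it.
Cyr61: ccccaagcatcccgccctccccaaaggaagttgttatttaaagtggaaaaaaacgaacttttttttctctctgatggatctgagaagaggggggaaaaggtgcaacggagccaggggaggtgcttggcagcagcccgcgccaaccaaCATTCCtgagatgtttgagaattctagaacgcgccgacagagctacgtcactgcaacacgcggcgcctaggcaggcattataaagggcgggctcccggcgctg

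**Figure D3:**
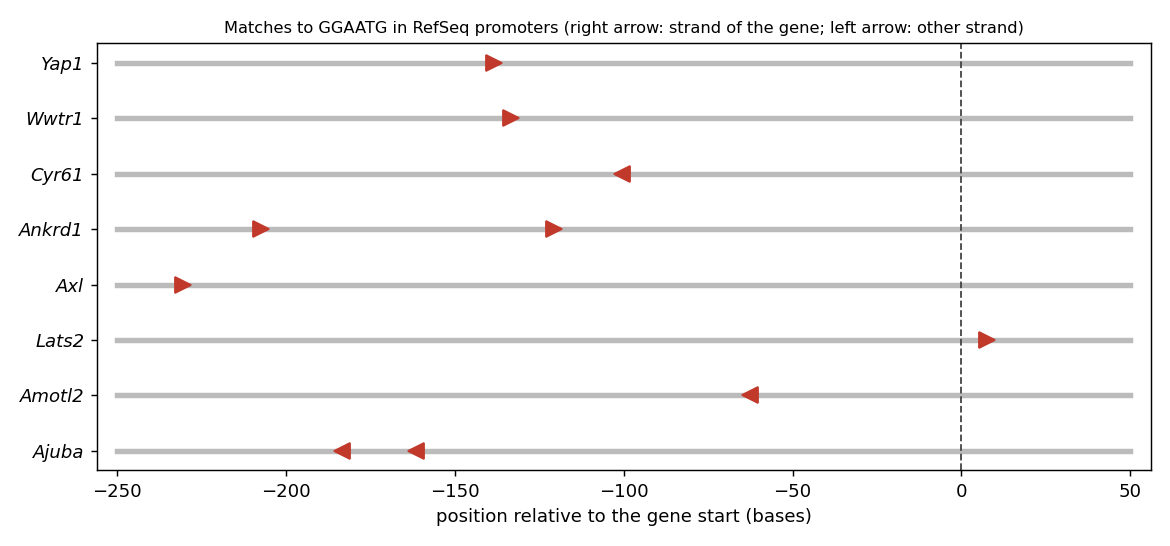
Position of GGAATG matches (marks, by strand) in the first listed RefSeq promoter of 8 genes, from 250 bases before to 50 after the start in the promoter table (horizontal axis, bases). Each of the 8 promoters holds at least 1 match, and those of *Ankrd1* and *Ajuba* hold 2.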

How the data were processed

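RNA of mouse embryonic fibroblasts was sequenced in 21 libraries, grouped by cell line, virus and TMPyP4 from the labels and the description in the paper. The authors trimmed the reads (cutadapt 1.9.1), aligned them to mm10 (STAR 2.5.2a) and deposited an expected count per gene, with strand taken into account, from RSEM 1.3.0, rounded to whole numbers and not normalized. TPM values per gene, scaled for length by RSEM, were deposited by the authors in the same table. The labels give 101-base reads and 15% serum, and the paper 75-base reads, another HiSeq model and 10% serum, and which holds is not known.

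Expected counts went into edgeR 4.0.16 (R 4.3.3), with TMM scaling, the default filter by group (13719 of 24454 genes tested), and 1 robust quasi-likelihood fit of the 7 groups with 14 residual degrees of freedom. The 6 comparisons between groups and the 2 differences between effects of Cre were tested two-sided, with Benjamini-Hochberg adjustment over all tested genes, and called at 0.01. The study used DESeq2 (1.28.0 in the processing notes, another release in the paper), and DESeq2 1.42.0 was an alternative here. SE is the absolute log2 fold change divided by the square root of F. Levels are CPM after TMM scaling, with a prior count of 2 for log2 values. The pipeline was tested on simulated data. Depth differed little between groups, with medians from 40729951 to 45358939 counts, and the lowest *Ankrd1* library still held 513 counts.

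The 10 genes and the lists were chosen with earlier results of these data known. Genes named are the 10, *Rtel1* and *Terf1*, from each list the called genes with the 3 largest rises and 3 largest falls in the first 2 comparisons, and the 3 genes in no list, at a mean of at least 5 CPM, nearest in pattern to *Ctgf*, *Cyr61*, *Ankrd1* and *Amotl2*. *Gadd45a*, *Igfbp3* and some listed genes called only with the RTEL1 CA +GFP control, outside this rule, were named after their values were seen. For 1 gene that this rule names, the values are not reported here. Alternatives (scaling, filter, DESeq2, fits of the compared libraries, a replicate block, thresholds, another control, each library left out) were run for the counts of calls and the 10 genes, not for the other listed genes, for which DESeq2 counts and, chosen after seeing the data, the RTEL1 CA +GFP control were added. Replicate numbers are shared between groups. Deviations from the group means of same-numbered libraries were correlated, over 11840 genes, for Cre with RTEL1 CA (0.86, 0.84 and 0.42) and for +Cre against TMPyP4 (0.72, 0.76 and 0.41), and for +Cre (0.78, 0.81 and 0.2) and TMPyP4 (0.78, 0.69 and 0.3) against RTEL1 CA +GFP. This pairing is taken from the data and not stated in the labels. The fit reported has no block. For the 10 genes, the value with the replicate block is given beside a result of these paired comparisons where it changes a call. For the other comparisons it is given with the alternatives. For the other listed genes no value with the block is given, so whether it changes their calls is not known. No library was left out. Promoters are the RefSeq table of GRCm38.p6, read in Python 3.11.15.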

Additional observations from a re-analysis of the deposited data

Results flagged for a closer look

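The effect of Cre differed between lines by a test of the difference for these genes, all by edgeR's quasi-likelihood F-test. Between *Rtel1* F/F cells and those with RTEL1 CA, *Ankrd1* differed by 2.64 on the log2 scale (adjusted p = 3.78e-06, edgeR test) and *Ctgf* by 1.37 (adjusted p = 5.62e-07, edgeR test). Between *Rtel1* F/F and *Terf1* F/F cells, *Ankrd1* differed by 2.81 (adjusted p = 1.29e-06, edgeR test), *Ctgf* by 0.93 (adjusted p = 1.61e-05, edgeR test) and *Amotl2* by -1.1 (adjusted p = 8.11e-04, edgeR test). All 5 differences rest on the *Rtel1* F/F +GFP libraries, which stood apart from the other 18 libraries. What sets them apart was not tested.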

How the results depend on the processing

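Across alternatives, 1154 of the log2 fold changes of the 10 genes kept direction and side of the threshold, 68 reversed, 20 gained a call and 38 lost it; 115 counts of called genes stayed within 1.5 times and 29 moved, and 126 and 19 counts did so for the 10 genes. *Ctgf* and *Ankrd1* were called for *Rtel1* loss and TMPyP4 in 14 of 16 alternatives, the exceptions being RTEL1 CA +GFP as control without and with the replicate block. The cause of the changes below was not tested, except that thresholds change counts by construction.

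With RTEL1 CA +GFP as control, *Rtel1* loss called 1064 genes and 1 of the 10, with log2 fold changes of -0.02 for *Yap1*, 0 for *Wwtr1*, -0.23 for *Tead1*, -0.2 for *Ctgf*, -0.56 for *Cyr61*, -0.01 for *Ankrd1* and 0.04 for *Lats2*. TMPyP4 then called 2333 genes and, by edgeR, 0 of the 10 (3 at an unadjusted p under 0.05; DESeq2 was not run with this control), with -0.03 for *Yap1*, 0.02 for *Wwtr1*, -0.13 for *Tead1*, -0.11 for *Ctgf*, -0.3 for *Cyr61*, -0.45 for *Ankrd1* and -0.04 for *Ajuba*. With the replicate block added to this control, chosen after seeing the data, these log2 fold changes were the same to 2 decimals. *Rtel1* loss then called 1426 genes and 3 of the 10, and TMPyP4 3284 genes and 1 of the 10 (*Amotl2*, 0.6).

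With total counts, signs turned for *Yap1* (*Rtel1* loss -0.02, TMPyP4 -0.03, RTEL1 CA before Cre -0.02, difference from RTEL1 CA -0.01, difference from *Terf1* loss -0.03), for *Lats2* (-0.03) and *Amotl2* (-0.07) with TMPyP4, for *Axl* before Cre (-0.09) and for *Ajuba* in the difference from RTEL1 CA (-0.07), where 4 of the 10 were called. The count over all genes in that difference stayed within 1.5 times of 3450. *Lats2* after *Rtel1* loss was 0.01 with DESeq2 size factors, 0.01 with no filter and 0.01 with DESeq2. *Amotl2* with TMPyP4 was 0 with upper-quartile scaling. *Wwtr1* in +Cre against TMPyP4 was 0.01 with DESeq2 size factors, 0 with upper-quartile scaling and 0 with DESeq2.

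With DESeq2, Cre with RTEL1 CA called 337 genes, RTEL1 CA before Cre 7 of the 10 (*Yap1*, 0.13, adjusted p = 0.00557, with alternatives to 0.776) and the difference from RTEL1 CA 3 of the 10 (*Amotl2*, -0.66, adjusted p = 0.00866, with alternatives from 7.1e-04 to 0.0766). A DESeq2 count over all genes is given only for Cre with RTEL1 CA. With only the compared libraries fitted, edgeR called 0 genes for Cre with RTEL1 CA, 933 genes and 0 of the 10 for +Cre against TMPyP4 (*Amotl2* at an adjusted p of 0.0108, with alternatives from 5.31e-06), 3 of the 10 for RTEL1 CA before Cre and 2195 genes for the difference from RTEL1 CA. For RTEL1 CA before Cre the count over all genes stayed within 1.5 times of 6138 in that fit. At an adjusted p of 0.05, Cre with RTEL1 CA called 416 genes, *Terf1* loss 872 and 1 of the 10, +Cre against TMPyP4 3452, and the difference from RTEL1 CA 5229 and 4 of the 10. With an absolute log2 fold change of at least 1, calls were 1693 genes and 2 of the 10 for *Rtel1* loss, 921 and 2 for TMPyP4, 30 for Cre with RTEL1 CA, 175 for *Terf1* loss, 466 and 0 for +Cre against TMPyP4, 1849 and 2 for RTEL1 CA before Cre, and 1224 and 1569 for the differences from RTEL1 CA and *Terf1* loss. Without *Yap1*, *Wwtr1* and *Tead1*, 3 members were called after *Rtel1* loss.

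With the replicate block, *Terf1* loss called 1 of the 10 (*Lats2*, 0.26, adjusted p = 0.00935, alternatives to 0.36) and +Cre against TMPyP4 2 (*Amotl2* and *Axl*). It also called *Axl* after *Rtel1* loss (adjusted p = 1.86e-04, alternatives to 0.0517) and *Amotl2* in the difference from RTEL1 CA (-0.7, adjusted p = 7.1e-04, alternatives to 0.0766). The block gave 7172 genes called, Rtel1 loss; 5434 genes called, TMPyP4; 7498 genes called, RTEL1 CA before Cre; 215 genes called, Cre with RTEL1 CA; 642 genes called, Terf1 loss; and 2833 genes called, Rtel1 loss against TMPyP4. It changed no other call of the 10 genes for Cre with RTEL1 CA and +Cre against TMPyP4. Same-numbered libraries were not paired for *Rtel1* loss (correlations -0.02, 0.06 and 0.13), TMPyP4 (0.02, 0.05 and 0.13), RTEL1 CA before Cre (0.03, 0.05 and 0.11) or *Terf1* loss (0.55, 0.36 and -0.1).

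Without 1 library, genes called, TMPyP4, ran from 2466 (without *Rtel1* F/F +GFP replicate 2) to 4110, with 52 (without +Cre replicate 3) to 149 genes for Cre with RTEL1 CA, and 282 (without +Cre replicate 1 or +GFP replicate 2) to 377 for *Terf1* loss. Of the 10, 2 to 5 were called for TMPyP4, lowest without *Rtel1* F/F +GFP replicate 2 or 3 or TMPyP4 replicate 2 or 3. For RTEL1 CA before Cre 3 to 5 were called, lowest without *Rtel1* F/F +GFP replicate 2, while the count over all genes stayed within 1.5 times of 6138. Log2 fold changes that crossed 0 were *Lats2* after *Rtel1* loss (-0.1 to 0.04), *Amotl2* with TMPyP4 (-0.05 to 0.12), *Cyr61* (-0.15 to 0.01) and *Amotl2* (-0.24 to 0.05) for Cre with RTEL1 CA, *Ankrd1* for *Terf1* loss (-0.13 to 0.01), *Wwtr1* (-0.05 to 0.05) and *Tead1* (-0.15 to 0.03) for +Cre against TMPyP4, *Axl* (-0.03 to 0.15) and *Lats2* (-0.11 to 0.03) for RTEL1 CA before Cre, *Ajuba* in the difference from RTEL1 CA (-0.07 to 0.18) and *Cyr61* in that from *Terf1* loss (-0.16 to 0.03). Depth limits little here, since the lowest of the 10 held 513 counts in its lowest library.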
